A study of Mus musculus with 4 samples.

Results

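Connexins are the proteins of gap junctions. Connexin subunits assemble in the plasma membrane into a hemichannel, the connexon, and the hemichannels of neighbouring cells dock to a channel that passes ions and small metabolites. In the heart these channels carry the electrical impulse from cell to cell: connexin 43 (Gja1) serves the working ventricle, connexin 40 (Gja5) the atria and the fast conduction system, and connexin 45 (Gjc1) the embryonic heart and the nodes. Other tissues use other members, with connexin 32 (Gjb1) and connexin 26 (Gjb2) in liver and epithelia, connexin 37 (Gja4) in arterial endothelium, another beta connexin (Gjb5) in trophoblast and epidermis, and connexin 46 (Gja3) in the lens.

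The 8 connexin genes described here were chosen by symbol, with 3 cardiac members (Gja1, Gja5 and Gjc1) set against 5 epithelial and stem cell members (Gja3, Gja4, Gjb1, Gjb2 and Gjb5). They are 8 of the 20 connexin genes in a table of 24637 genes, and the rule names them by symbol without an expression threshold. The group names are those of the rule. Of the second group, Gja4 is known as a vascular and Gja3 as a lens connexin.

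Polyadenylated RNA was sequenced from 4 libraries of mouse embryonic stem cell (ESC) lines after cardiac differentiation, 2 labelled WT (Taf4+/+) and 2 labelled Taf4a-/- (Taf4-/-). Taf4a encodes a subunit of TFIID, the general transcription factor that holds the TATA-binding protein, and its null allele lacks exons 11 and 12. The lines were derived from blastocysts of heterozygous crosses, with 2 independent lines of each genotype, and both genotypes were kept on inactivated embryonic fibroblast feeders in LIF and serum. For differentiation, both were grown for 5 days as embryoid bodies in medium with 20% fetal calf serum and then for 9 days on gelatin-coated plates, without selection of a cell type, so each library is a mixed culture. A normalized count is the number of reads on a gene divided by the size factor of the library, and 1 read was worth from 0.877 to 1.11 normalized counts.

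Between 21732746 and 27733034 reads per library lay on genes. Taf4a itself had 889 and 678 normalized counts in WT against 1722 and 1799 under the Taf4a-/- label. By this count Taf4a was higher in the Taf4a-/- labelled libraries (log2 fold change 1.18, adjusted p = 0.00569 from limma). The gene-level count was not split by exon and so is no check of the deletion, and genotypes are given here as labelled. Cardiomyocyte markers were present in WT and low in the other genotype: all 15 fell, with a median log2 fold change of -3.47, and their summed level was 40049.9 and 39153 normalized counts in WT against 4862 and 4289. Actc1, cardiac actin, had 7519, 6901, 227 and 399 normalized counts, in the order WT replicates 1 and 2 and then Taf4a-/- replicates 1 and 2, which is used for every set of 4 values below. Myh7, a cardiac myosin heavy chain, had 8300, 3443, 1435 and 897. In bulk cultures such as these, fewer cells of a type and less RNA per cell cannot be told apart.

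All positions are those of NCBIM37 (mm9). Gja1 lies on chromosome 10 from 56097106 to 56110225 on the plus strand, Gjc1 on chromosome 11 from 102660893 to 102681014 on the minus strand, and Gja5 on chromosome 3 from 96708616 to 96881339 on the plus strand. Gjb1 lies on the X chromosome from 98571717 to 98580968 on the plus strand. Gja4 (126988665 to 126991283) and Gjb5 (127032053 to 127035425) lie within a stretch of 46.8 kb on chromosome 4. Gja3 (57654445 to 57676867) and Gjb2 (57717437 to 57723539) share with Gjb6 a stretch of 98.0 kb on chromosome 14, and the genes named on both chromosomes are on the minus strand. Connexin genes usually carry the whole coding sequence in a single exon, and this held for at least 1 annotated coding transcript of each of the 8 members. The coding sequence with its stop codon ran from 681 nt in Gjb2 to 1254 nt in Gja3.

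TFIID binds core promoters, so the promoter windows of 4 members are shown: Gja1, the most abundant connexin, Gja5 as the other cardiac member with a window, and Gjb2 and Gjb1, the members that fell. Windows of 300 bases, from 250 before to 50 after an annotated RefSeq start (GRCm38.p6), were matched for 7 of the 8 members and each was found at a single place in NCBIM37. No window was matched for Gjc1. Gjb1 has 4 such windows and Gja3 has 2, which makes 11 in all. Both strands were searched for 5 motifs. The TATA box, where the TATA-binding protein sits, was searched by the letters TATAAA. The GC box of Sp1 was searched as GGGCGG, and the core of T-box factor sites as AGGTGT. Sites of GATA factors were searched as GATAAG, and those of AP-1 as TGACTCA. None of the 5 contains another. Capitals below mark their matches.

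Gja1, chr10:56096856-56097155, plus strand: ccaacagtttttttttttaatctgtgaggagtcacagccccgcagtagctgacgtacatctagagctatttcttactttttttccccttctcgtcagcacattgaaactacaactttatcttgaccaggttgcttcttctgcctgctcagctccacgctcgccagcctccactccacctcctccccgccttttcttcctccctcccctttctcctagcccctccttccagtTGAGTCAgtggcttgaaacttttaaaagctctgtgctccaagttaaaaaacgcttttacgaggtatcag
Gja5, chr3:96836075-96836374, plus strand: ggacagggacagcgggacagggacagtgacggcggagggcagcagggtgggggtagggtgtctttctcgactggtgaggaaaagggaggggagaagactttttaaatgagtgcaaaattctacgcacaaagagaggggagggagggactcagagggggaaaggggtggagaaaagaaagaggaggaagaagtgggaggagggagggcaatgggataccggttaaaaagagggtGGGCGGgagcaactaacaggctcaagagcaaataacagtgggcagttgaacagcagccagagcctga
Gjb2, chr14:57723490-57723789, minus strand: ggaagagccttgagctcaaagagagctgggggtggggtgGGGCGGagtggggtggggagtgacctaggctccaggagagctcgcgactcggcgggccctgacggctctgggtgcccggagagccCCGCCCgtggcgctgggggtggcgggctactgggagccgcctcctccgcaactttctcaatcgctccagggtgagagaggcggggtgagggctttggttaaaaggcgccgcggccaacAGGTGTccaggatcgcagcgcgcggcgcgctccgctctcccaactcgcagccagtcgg
Gjb1, start 4, chrX:98578821-98579120, plus strand: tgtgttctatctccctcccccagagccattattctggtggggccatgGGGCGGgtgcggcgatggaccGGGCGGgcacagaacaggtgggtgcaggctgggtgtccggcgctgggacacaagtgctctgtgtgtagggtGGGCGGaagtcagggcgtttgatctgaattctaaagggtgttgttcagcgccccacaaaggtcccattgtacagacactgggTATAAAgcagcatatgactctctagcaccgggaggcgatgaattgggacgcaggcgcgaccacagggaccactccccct

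The Gja1 window held no match but an AP-1 site on the reverse strand, whose first base lay 19 bases before the start. The Gja5 window held a GC box 17 bases before the start. The Gjb2 window held a GC box at -211 and at -126 and a T-box core at -8. The window of Gjb1 start 4 held 3 GC boxes (at -203, -182 and -111) and a TATA box at -29. Only this start of Gjb1 is printed. Its starts 1, 2 and 3 held no TATA box and no GC box, and the only match there was a T-box core at -57 of start 1. Of the other windows, those of Gjb5 (at -243) and the first start of Gja3 (at -163) held the TATA letters, on the reverse strand, and no window held a GATA site. Among 32851 RefSeq windows of the same length, 13.6% held TATAAA, 35.7% GGGCGG, 13.7% AGGTGT, 7.44% GATAAG and 5.20% TGACTCA. These matches are descriptions of letters, and which start was used in these cells was not measured.

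Of the epithelial and stem cell members, Gjb1 and Gjb2 fell by about 2 on the log2 scale in the Taf4a-/- labelled libraries. The call of Gjb2 depended on WT replicate 2. Gjb5 and Gja4 of the same group did not pass the test, and Gja3 was too low to be tested. None of the 3 cardiac members passed the test in either direction. Gja1 stayed the most abundant connexin in every library. Gjc1 was higher in both Taf4a-/- labelled libraries than in either WT library without passing the test, and Gja4 and Gja5 varied widely between libraries of the same genotype. The plot of normalized counts by library shows these patterns.

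**Figure D1:**
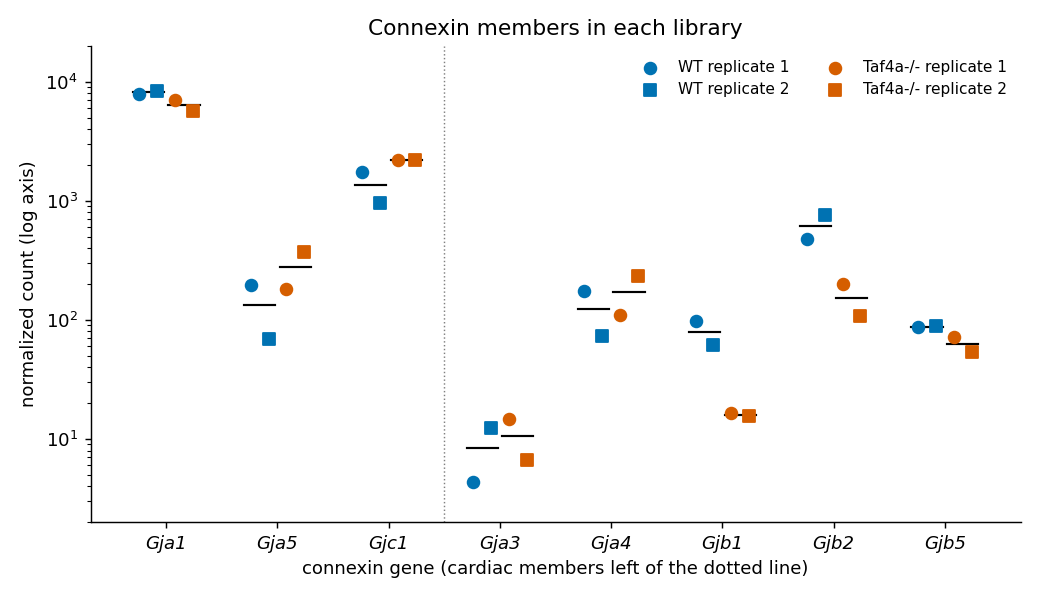
Normalized counts (log axis) of the 8 connexin members in each of the 4 libraries, WT in blue and Taf4a-/- in orange, circles for replicate 1, squares for replicate 2 and black bars for the mean of each genotype. Gja1 has from 5712 to 8435 normalized counts and lies above the rest in every library, Gjb1 and Gjb2 are lower in both Taf4a-/- labelled libraries, and Gja4 and Gja5 overlap between the genotypes.

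The limma test was run on log2(normalized count + 1) for genes that averaged 10 or more. This scale shrinks the change of low genes. The Benjamini-Hochberg adjustment ran over all 16926 genes tested. At an adjusted p under 0.05, 2928 genes (17.3%) were lower and 1906 (11.3%) higher in the Taf4a-/- labelled libraries, and the median log2 fold change was -0.01. Of the 8 members, 7 were tested, of which 2 were lower and 0 higher by this limma test. At an unadjusted p under 0.05, 3 members were lower and 1 was higher, beside 42.5% of all genes in either direction. The values of the genotypes did not overlap for 4 members with lower values (36.6% of all genes tested) and for 1 with higher values (34.5% of all genes tested), so separation by itself was common among all genes. The median log2 fold change was -0.36 over the 7 members (0.07 over the 6 that averaged 50 or more), 0.78 over the 3 cardiac ones and -1.26 over the 4 others. With 2 libraries against 2, an exact permutation test cannot give a p under 0.333, so the limma values rest on the spread shared across genes.

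Gja1 (ENSMUSG00000050953) had 7845 and 8435 normalized counts in WT and 7052 and 5712 in the Taf4a-/- labelled libraries. Both values of the latter lie below both WT values, but the gap between the nearest libraries is smaller than that between the 2 Taf4a-/- labelled libraries. The mean was 8139.9 ± 417 in WT and 6382 ± 947 in Taf4a-/- (SD, n = 2 each), a log2 fold change of -0.36 (95% interval -0.71 to -0.01) that did not pass the test (adjusted p = 0.111 from limma). The interval excludes a fall as large as that of any cardiomyocyte marker named above.

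Gjc1 (ENSMUSG00000034520), the connexin of the early heart tube, had 1735 and 958 normalized counts in WT and 2221 and 2222 in the Taf4a-/- labelled libraries. The Taf4a-/- labelled libraries were nearly equal, whereas WT replicate 1 lay 0.86 above WT replicate 2 on the log2 scale. The log2 fold change was 0.78 (95% interval 0.13 to 1.44), with an adjusted p of 0.0734 from limma. WT replicate 2 decides this value: without it the log2 fold change was 0.36 (adjusted p = 0.0707 from limma), and without WT replicate 1 it was 1.21 and passed the test (adjusted p = 0.0148 from limma). Pluripotent cell markers were also higher in the Taf4a-/- labelled libraries. Of 12, 10 were higher and 0 lower, the median log2 fold change was 2.76, and their summed level was 6121 and 3077 in WT against 18855 and 21446. Pou5f1, which encodes the pluripotency factor Oct4, had 1097, 278, 3113 and 3325 normalized counts, and Sox2, another pluripotency factor, had 1277, 385, 2785 and 2559. WT replicate 2 was the lowest library for these genes and for Gjc1, and also for Gja4, Gja5, Cldn5 and the trophoblast markers Hand1 and Eomes given below. The distance from the profile of Gjc1, a root mean square difference on the log2 scale defined below, was 1.02 for the pluripotent list, against 0.536 for trophoblast, 0.565 for endothelial, 0.763 for lens and 0.983 for simple epithelium markers. The part of any of these cell types in the Gjc1 values was not tested.

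Gja5 (ENSMUSG00000057123) had 196 and 69.6 normalized counts in WT and 183 and 371 in the Taf4a-/- labelled libraries. WT replicate 1 lies above Taf4a-/- labelled replicate 1, so the groups overlap. The log2 fold change of 1.15 had a 95% interval from -0.19 to 2.49 (adjusted p = 0.165 from limma) and was 0.41 without WT replicate 2, 1.89 without WT replicate 1, 1.65 without Taf4a-/- replicate 1 and 0.64 without Taf4a-/- replicate 2. Its annotated exons share 165 nt with Gpr89 on the opposite strand, a gene with 836, 965, 778 and 850 normalized counts. The library kit does not mark strand, so reads in the shared stretch cannot be told apart.

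Gja4 (ENSMUSG00000050234), the arterial connexin 37, had 175 and 72.7 normalized counts in WT and 111 and 232 in the Taf4a-/- labelled libraries. The groups overlap, and the order of the libraries, lowest in WT replicate 2 and highest in Taf4a-/- replicate 2, is also that of Gja5. The log2 fold change was 0.50 (95% interval -0.76 to 1.76, adjusted p = 0.497 from limma) and turned to -0.13 without WT replicate 2 and to -0.03 without Taf4a-/- replicate 2. Within WT, replicate 1 exceeded replicate 2 by 1.26 for Gja4 and 1.48 for Gja5 on the log2 scale, and within the Taf4a-/- labelled libraries replicate 2 exceeded replicate 1 by more than 1 for each gene. The ratio of Gja5 to Gja4 per kb of exon was 0.328 and 0.281 in WT and 0.485 and 0.468 in the Taf4a-/- labelled libraries, so it varied less within a genotype than either gene did.

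Endothelial markers were the list nearest to Gja4 and Gja5 in their profile over the 4 libraries. The distance used was the root mean square difference of log2(normalized count + 1) after each gene, or the median of a list, was centred on its mean, and it was 0.447 for Gja4 and 0.759 for Gja5. The trophoblast list came next, at 0.560 and 0.821. Gja1 (0.440) and Gjb5 (0.462) lay about as near to the endothelial list as Gja4, so this nearness was not particular to the vascular members. Of 14 endothelial markers, 0 passed the limma test in either direction, the median log2 fold change was -0.16, and their summed level was 19265 and 17147 normalized counts in WT against 13481 and 16891, lower in both Taf4a-/- labelled libraries. Flt1, a VEGF receptor, had 3940, 6508, 4897 and 3180 normalized counts, and Kdr, the main VEGF receptor, had 4538, 3775, 2726 and 3983. Claudin 5 (Cldn5), the tight junction protein of endothelium and a member of that list, was the third nearest of all tested genes to Gja5 at a distance of 0.122, with 437, 162, 341 and 752 normalized counts. The nearest were 1700067K01Rik (0.102) and Rbks (0.116), a ribokinase. Gja4 ranked 74 among all tested genes by nearness to Gja5, and Gja5 ranked 144 by nearness to Gja4, at a distance of 0.333. Gja1 and Gjb5 lay closer to each other, at 0.0815, with ranks of 67 and 181, and Gjc1 ranked 276 by nearness to Gja5. The distance is not scaled for the size of a change, so it mixes likeness in shape with likeness in fold change. With 4 points a profile holds little detail and many genes lie close, so these distances are descriptions.

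**Figure D2:**
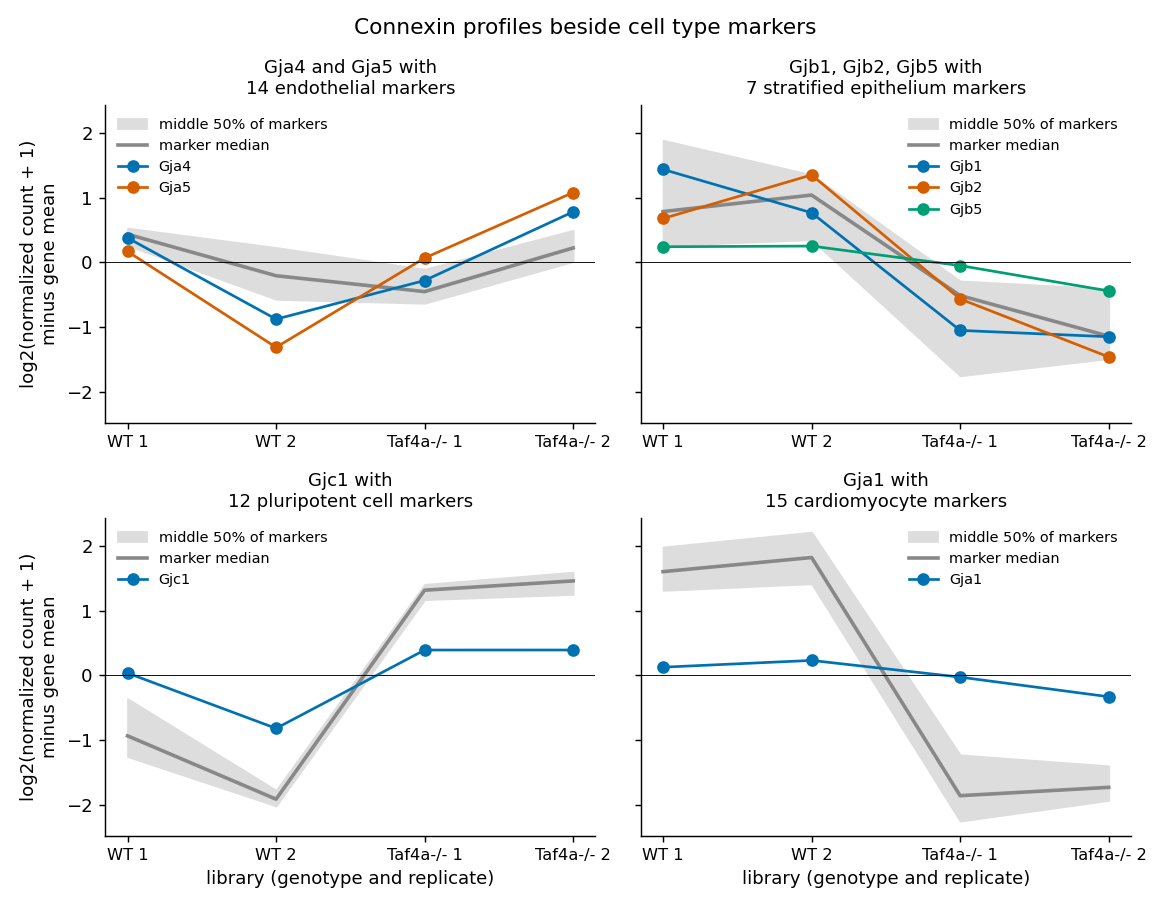
Each panel plots log2(normalized count + 1) minus the gene's mean over the 4 libraries (WT and Taf4a-/-, replicates 1 and 2) for connexin members in colour, with the median of a marker list as a grey line and its middle 50% as a grey band. Gja4 and Gja5 are lowest in WT replicate 2 and highest in Taf4a-/- replicate 2, Gjb1 and Gjb2 drop with the stratified epithelium markers, and Gja1 stays within 0.4 of its mean while the cardiomyocyte median drops.

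Gjb1 (ENSMUSG00000047797), the connexin of hepatocytes and Schwann cells, had 98.2 and 61.3 normalized counts in WT and 16.6 and 15.5 in the Taf4a-/- labelled libraries. These were 112 and 59 reads against 17 and 14 reads. The lower WT value is several times the higher value of the other genotype. Gjb1 fell by 2.20 on the log2 scale (SE 0.39, 95% interval -3.15 to -1.26), from 79.7 ± 26.1 to 16.1 ± 0.819 normalized counts (SD, n = 2 each, adjusted p = 0.0118 from limma). The fall passed the limma test with any single library left out, at values from -2.54 to -1.87. Gjb1 is on the X chromosome, and Xist, which coats the inactive X, differed between the libraries, with 6.14, 7.27, 217 and 6469.97 normalized counts. Xist was higher in both Taf4a-/- labelled libraries than in either WT library, so its part in Gjb1 cannot be told apart from that of genotype. Within a genotype, Gjb1 differed on the log2 scale by 0.67 between the WT libraries. Between the Taf4a-/- labelled libraries it differed by 0.098, from only 17 and 14 reads. Eif2s3y, a gene of the Y chromosome, had 1688, 0, 309 and 0, and the part of the sex chromosomes in the fall of Gjb1 was not tested.

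Gjb2 (ENSMUSG00000046352), the connexin 26 of epithelia, liver and inner ear, had 477 and 762 normalized counts in WT and 201 and 107 in the Taf4a-/- labelled libraries. The groups are well apart, although each holds a spread of more than 0.6 on the log2 scale. Gjb2 fell by 2.03 (SE 0.36, 95% interval -2.91 to -1.15), from 619 ± 201 to 154 ± 66.0 normalized counts (SD, n = 2 each, adjusted p = 0.0123 from limma). WT replicate 2 bears on the call: without it the log2 fold change was -1.69 and did not pass (adjusted p = 0.0877 from limma), which leaves 1 member called lower. On chromosome 14 the neighbours of Gjb2 were near the floor of counting. Gja3 (ENSMUSG00000048582) had 4.38, 12.5, 14.7 and 6.64 normalized counts, or 5, 12, 15 and 6 reads, and was not tested. Gjb6, named after its values were seen, had 8, 15, 1 and 3 reads.

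Markers of endoderm and of epithelia fell alongside Gjb1 and Gjb2. All 14 visceral endoderm and liver markers fell (17.3% of all genes tested did), with a median log2 fold change of -6.21 and a summed level of 101044 and 84983 normalized counts in WT against 1894 and 1204. Afp, alpha-fetoprotein, had 42655, 36728, 152 and 140.5 normalized counts, Apob, the apolipoprotein of LDL, had 25473, 16139.5, 320.1 and 222, and Alb, albumin, was at 0 in both Taf4a-/- labelled libraries. Of 12 simple epithelium markers, 10 fell and 0 rose (median -0.99), with summed levels of 44089.8, 54051, 37251 and 29074. Krt18, a keratin of simple epithelia, had 10171, 11792, 11714 and 9546 normalized counts and did not pass, while Cdh1, E-cadherin, had 7369.6, 8936, 6032 and 4621 and fell by 0.62 on the log2 scale (adjusted p = 0.0436 from limma). Of 7 tested stratified epithelium markers, 5 fell and 0 rose (median -1.54), and the summed level of all 10 was 3211 and 3971 against 1548 and 1403. The profile of this last list was the nearest of all marker lists to that of Gjb2 (0.232) and Gjb1 (0.445). Perp, a desmosome gene in it, had 1657, 2826, 961 and 789.7 normalized counts, the same order of libraries as Gjb2. Smooth muscle markers came next for Gjb2 (0.551) and Gjb1 (0.657), nearer than simple epithelium markers (0.571 and 0.708). Fibroblast and feeder markers (0.695) were also nearer to Gjb1 than simple epithelium. Visceral endoderm and liver markers lay at 2.02 from Gjb2 and 1.83 from Gjb1. The distance is not scaled, so a list that fell much further (median -6.21) lies far off even though its direction is the same. Sfn, a 14-3-3 protein of epithelia, had 499.7, 404, 370.03 and 415. The part of any of these cell types in the fall of Gjb1 and Gjb2 was not tested.

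**Figure D3:**
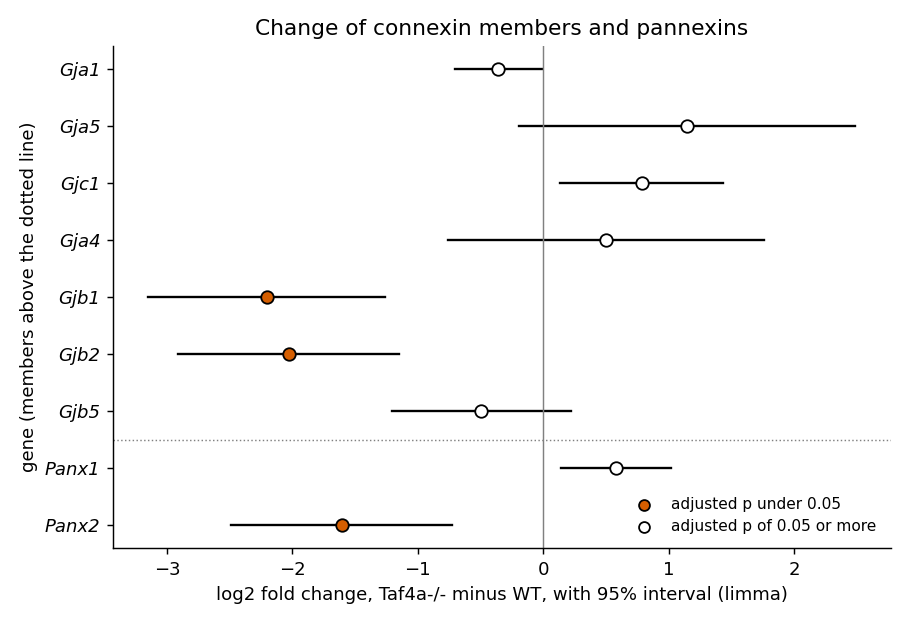
Log2 fold change, Taf4a-/- minus WT, with its 95% interval from limma for the 7 tested members (above the dotted line) and for 2 pannexins. Filled points have an adjusted p under 0.05: Gjb1 at -2.20, Gjb2 at -2.03 and Panx2 at -1.61, while the intervals of Gja5 and Gja4 span 0.

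Gjb5 (ENSMUSG00000042357), a connexin of trophoblast and epidermis, was not called different between the genotypes. It had 87.7, 88.3, 71.5 and 54.2 normalized counts, which gave a difference of -0.49 on the log2 scale (95% interval -1.20 to 0.22, adjusted p = 0.246 from limma). Both Taf4a-/- labelled libraries lie below those of WT without passing the test, while Gja4, which lies near it on chromosome 4, was highest in Taf4a-/- labelled replicate 2. Of 10 tested trophoblast markers, 1 was lower and 0 were higher (median -0.22, and 0.25 without Taf4a-/- replicate 1), with summed levels of 6575, 4529, 7272 and 9119.9. Hand1, which also marks mesoderm, had 3649, 1661, 4719 and 6754 normalized counts, and Eomes, which also marks the primitive streak, had 706, 158, 1225 and 940.1. Both genes were higher in the Taf4a-/- labelled libraries, whereas the list median over all libraries was negative. Hand1 is the largest part of the summed level in each library, so that sum mostly follows Hand1. Lens markers, set beside Gja3, were mostly too low to test: of 10, 3 were tested and 2 of these fell, Prox1 (392, 345, 234 and 229), which other tissues express too, and the crystallin Cryaa (73.6, 71.7, 1.96 and 1.11).

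Gja1 made up most of the connexin RNA of each library. Levels between genes are given as normalized counts per kb of annotated exon. Gja1 stood at 2622 ± 134 per kb in WT and 2055 ± 305 in the Taf4a-/- labelled libraries (SD, n = 2 each), first in both. Gjc1 came second at 269 ± 110 and 444 ± 0.106. In WT the third was Gjb2 (257 ± 83.7), level with Gjc1 within their spread, followed among the members by Gja4 (73.6 ± 43.1), Gjb5 (51.1 ± 0.266), Gjb1 (46.7 ± 15.3) and Gja5 (23.1 ± 15.6), and the neighbours from Gja4 to Gjb1 do not differ beyond their spread. Gja5 (34.2 and 12.1) lay below Gjb1 (57.5 and 35.9) in WT by a narrow margin. In the Taf4a-/- labelled libraries the third was Gja4 (102 ± 51.0), followed among the members by Gjb2 (64.0 ± 27.4), Gja5 (48.2 ± 23.1) and Gjb5 (36.5 ± 7.09), where each pair of neighbours lies within its spread, and Gjb1 (9.41 ± 0.480) came after them. Gja3 stood at 5.44 ± 3.69 and 6.89 ± 3.68.

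As a share of the summed level per kb of all 20 connexins, Gja1 took 73.3% and 77.1% in WT and 73.7% and 68.6% in the Taf4a-/- labelled libraries. These ranges overlap. Gjc1 took 10.1% and 5.43% in WT against 14.4% and 16.6%, without overlap. The beta family (the Gjb genes together) took 12.0% and 15.1% against 7.56% and 6.35%, also without overlap. The ratio of Gja1 to Gjc1 was 7.29 and 14.2 in WT and 5.12 and 4.14 in the Taf4a-/- labelled libraries, and the ratio of Gjb2 to Gjb1 was 3.45, 8.81, 8.56 and 4.92, overlapping between genotypes. With the longest transcript as the length, Gjc1 stood higher, at 394.5 and 651 per kb in the 2 genotypes, Gja5 was at 75.5 and Gjb1 at 10.1 in the Taf4a-/- labelled libraries.

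**Figure D4:**
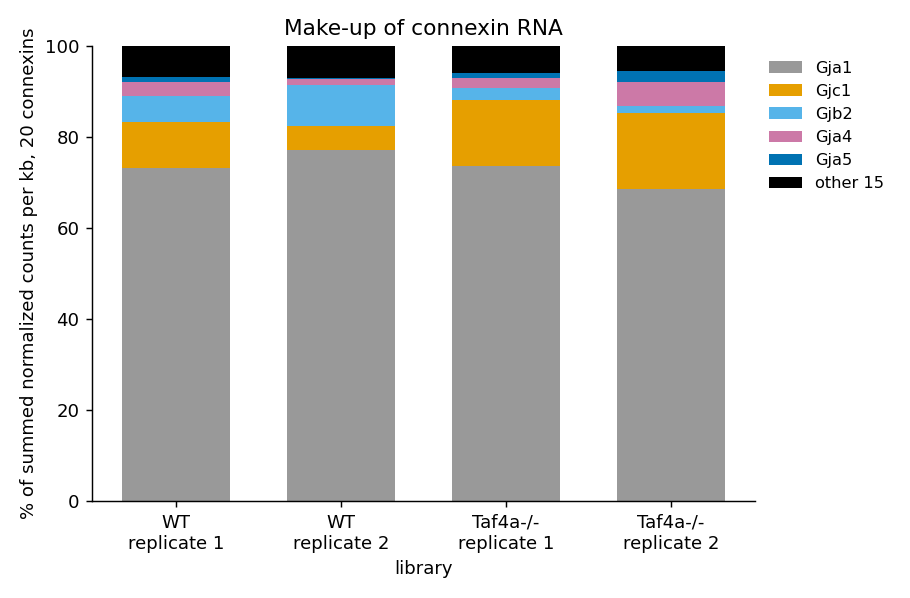
Share in percent of each connexin in the summed normalized counts per kb of 20 connexin genes, stacked for each of the 4 libraries. Gja1 takes 68.6% to 77.1% of every bar, the share of Gjc1 is larger and that of Gjb2 smaller in the bars of Taf4a-/-.

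Of the other 12 connexins in the table, 10 had a mean under 10 normalized counts, with no library above 15.6, and were not tested. Pannexins form membrane channels that resemble connexons but usually do not dock. Panx2 had 80.7, 57.1, 23.5 and 19.9 normalized counts and fell by 1.61 on the log2 scale (adjusted p = 0.0239 from limma), a call that was lost with any 1 library left out (adjusted p from 0.0502 to 0.0814). Panx1, the broadly expressed pannexin, had 477, 368, 609.9 and 643, with both Taf4a-/- labelled libraries above WT (log2 fold change 0.58, adjusted p = 0.0567 from limma).

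Among 30 genes of connexin partners, which anchor, move or modify gap junctions, 29 were tested, 9 were lower and 3 higher, and the median log2 fold change was -0.19. Of all genes tested, 17.3% were lower and 11.3% higher, so the number of partners that rose is near the share of all genes. Falls among them were those of Ctnna3 (-3.47), the alpha-T-catenin of the intercalated disc, Cav2 (-2.17) and Cav1 (-1.66), the caveolins, and Dsc2 (-1.28), a desmosomal cadherin. Ctnna3 had 96.4, 123, 5.87 and 13.3 normalized counts, and Cav1 had 846, 902, 218 and 351. The 3 that rose, named after their values were seen, were Ubqln4 (0.61), Dbn1 (0.45), drebrin, and Cdh2 (0.39), N-cadherin, which joins cardiomyocytes at the disc. Plakoglobin (Jup), named in the same way, had 4371, 4917, 4551 and 4480 normalized counts. The calls depend on single libraries: without WT replicate 2, 3 were lower and 0 higher, and without Taf4a-/- replicate 2, 5 were lower and 0 higher, and without Taf4a-/- replicate 1, 0 were higher.

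The 20 transcription factors known to act on cardiac connexin genes split between directions, with 7 lower and 4 higher and a median log2 fold change of -0.09. The shares over all genes tested were 17.3% lower and 11.3% higher. Tbx5, an activator of Gja5 in the conduction system, had 324, 256, 36.2 and 40.9 normalized counts and fell by 2.87 on the log2 scale (adjusted p = 0.00203 from limma). Nkx2-5, its partner on that gene, had 302, 198, 50.9 and 28.8 and fell by 2.64. Hopx, a homeodomain-only protein, fell by 2.01. Tbx5 and Nkx2-5 fell in cultures where Gja5 RNA overlapped between the genotypes. Msx1 (850, 166, 1824 and 2239.6 normalized counts), a homeobox repressor, rose by 2.42, and Tbx18 (126, 102, 372 and 389), a factor of the sinus node, rose by 1.74. Without WT replicate 2, 4 were lower and 2 higher, and without Taf4a-/- replicate 1, 4 were lower and 2 higher.

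Of the other mesodermal lists, 6 of 10 smooth muscle markers fell and 0 rose (median -1.34), with summed levels of 34678, 63969.9, 22421 and 22164. Acta2, smooth muscle actin, had 20618, 35097, 12344 and 12138 normalized counts, and Tagln, transgelin, had 7513, 15766, 6592 and 6165. Of 12 fibroblast and feeder markers, 8 fell and 0 rose (median -3.39), with summed levels of 440078, 608563, 55926 and 69002. Col3a1 and Col1a1, fibrillar collagens, had 162786, 205106, 15154 and 13487 and 114769, 194896, 13344 and 16578 normalized counts. Gja1 is known in both cell types. It did not pass the test, and the part of these or other cell types in the Gja1 values was not tested. The genes nearest to Gja1 in profile were Ccdc107 (0.0147), Extl1 (0.0183), an exostosin-like glycosyltransferase, and Slc2a3 (0.0201), a glucose transporter with 41732, 45273, 38776 and 31319 normalized counts. Those nearest to Gjc1 were Gm15033 (0.0338), Pcdh20 (0.0401), a protocadherin, and Pdss1 (0.0444), an enzyme of ubiquinone synthesis. None of these is a connexin.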

How the data were processed

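Poly(A) RNA of 4 cultures was sequenced with a kit that does not mark strand. The authors mapped reads to mm9 and deposited read counts per gene normalized with DESeq, and the submitters' processing notes name CASAVA 1.8, TopHat 1.3.3 and HTSeq 0.5.3p1. Division by the value of 1 read gave whole numbers for 100% of values (tolerance 0.05). All 24637 gene identifiers were found in GENCODE vM1 (NCBIM37), from which exon lengths were taken. Genes with a mean of at least 10 entered a linear model of genotype on log2(deposited normalized count + 1) in R 4.3.3, using limma 3.58.1 with trended empirical Bayes variances, and were called at a Benjamini-Hochberg adjusted p under 0.05, with 4.17 prior degrees of freedom. On simulated data with 200 changed of 16930 genes tested, 88.5% were recovered and 4.84% of 186 calls were unchanged genes. The simulation gave all genes the same relative spread and changed far fewer genes than were called in the real data. Its rates therefore need not hold for the calls reported here. Intervals are at 95%. The members and gene lists were chosen with earlier results of these data known. Named genes were all members, other connexins and pannexins above the filter, up to 5 called partners and factors by size, the 2 most abundant markers of each list, the 3 nearest profiles of each cardiac member, genes with overlapping exons and Taf4a, and Alb, Xist, Eif2s3y, Jup, Gjb6, Ubqln4, Dbn1 and Cdh2 were added after their values were seen. Some genes that this rule names are not reported here. Library replicates are separate ESC lines, and their numbers are names. Figures were drawn with matplotlib 3.10.9.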

Additional observations from a re-analysis of the deposited data

How the results depend on the processing

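Of the 8 members, 2 were called lower and 0 higher. With a mean of at least 50, where Gjb1 was no longer tested, 1 was lower. With no variance trend 1 was lower (Gjb2 had an adjusted p of 0.0507 from limma), and at an adjusted p under 0.01 there were 0. Leaving out each library in turn gave 1 to 2 lower and 0 to 1 higher. Over all genes, 2928 were lower and 1906 higher, against 1741 and 856 with no variance trend and 1119 and 331 at an adjusted p under 0.01. Leaving out each library gave 1222 to 3038 lower and 624 to 2476 higher, and the lone library left in a genotype is then assumed to vary like those of the other. Quantile normalization called 2448 lower and 2676 higher and moved the all-gene median from -0.01 to 0.11 (log2), to which changes under it are relative. It gave -1.93 for Gjb1, -1.79 for Gjb2 and 1.41 for Gja5. The log2 fold change of Gja4 reversed to -0.13 without WT replicate 2 and to -0.03 without Taf4a-/- replicate 2, with 1.13 as its highest value, without WT replicate 1.

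Same-numbered deviations had a correlation of 0.0118, so the numbers were not taken to pair the lines. With the replicate block, 1 member was higher (Gjc1, adjusted p = 0.0483 from limma) and 2 stayed lower. Voom on the recovered reads called Gjb1 and Gjb2 lower (adjusted p = 0.0175 and 0.0157). Panx1 passed with quantile normalization (0.74) and without WT replicate 1 (0.77). The edgeR and DESeq2 tests and TMM scaling were not run. The causes were not tested. Low read counts limit Gja3 and the 10 other connexins under the filter, and 2 lines per genotype limit the rest.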
